A study of Mus musculus with 10 samples.

Results

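Translation efficiency was measured in untreated mouse embryonic stem cells as ribosome footprints on a coding sequence per whole transcriptome read on the same sequence. The values came from the 2 control ribosome profiling libraries and the 2 control whole transcriptome libraries of a series that also profiled footprints after 3 translation inhibitors. Members were the transcripts with a single listed coding sequence and a mean transcriptome value of at least 100 on that open reading frame (ORF). These were 10768 of 14534 coding transcripts. The transcript just inside this cutoff had a mean transcriptome value of 100.01 and that just outside one of 99.969. The efficiency of a transcript was its mean footprint value over its mean transcriptome value, divided by the median of this ratio over all members, so that a value of 1 is the median transcript and the unit has no absolute scale.

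The cells were CGR8, a mouse embryonic stem cell line of 129 origin grown without feeder cells on gelatin in the presence of leukemia inhibitory factor. The control libraries came from cells that received the solvent DMSO, which all samples of the series carried in equal amount. The chilled lysate was treated with cycloheximide, nuclei and most mitochondria were removed, and both kinds of library were made from this lysate. The methods describe the 2 libraries of each kind as biological replicates, but the labels do not say that they came from separate cultures, so the p-values measure the spread between these libraries only. Footprints were fragments left by RNase I, an enzyme that cuts RNA not covered by a ribosome, whereas the transcriptome RNA was cut by heat. An effect of these preparations on a coding sequence and its translation cannot be told apart in this ratio. The inhibitor libraries used here for comparison were harringtonine at 2 µg/ml for 10 min, DMDA-pateamine A at 1 µM for 10 min and puromycin at 0.2 mg/ml for 20 min, with 2 footprint libraries each and no transcriptome library analysed here.

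A ribosome usually binds at the 5′ end of an mRNA, scans the 5′ untranslated region (UTR) and starts at an AUG, with a preference for a purine 3 bases before that codon and a G directly after it. AUGs in the 5′ UTR can capture scanning ribosomes, and the resulting upstream ORFs (uORFs) are best known from stress response mRNAs such as *Atf4*. The footprints on a coding sequence reflect both how often ribosomes start and how long they stay, so that slow elongation also raises the count. In embryonic stem cells, factors such as Oct4 (*Pou5f1*), *Sox2* and *Nanog* maintain self-renewal, and the cells divide rapidly with a short G1 phase.

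The start codons at both ends of the efficiency range are shown first, since start codon context is one of the layouts compared. Each line gives the transcript strand 5′ to 3′ in mm10 coordinates (GRCm38, GENCODE annotation), with the base 3 before the AUG, the AUG and the base after it in capitals. The transcripts were the first 4 from each end of the efficiency range that met all filters, among those called with at least 10 mean footprints. Candidates also needed at least 90% of their coding sequence in windows found once in the genome. The reference annotation had to give the same coding start and length.
*Tmsb4x*, chrX:167208024-167208048, minus strand: cttccagcaAccATGTctgacaaac
*Rbm39*, chr2:156179215-156179239, minus strand: cgagtagagAaaATGGcagacgata
*Marcks*, chr10:37138523-37138547, minus strand: gaagaagccAgcATGGgtgcccagt
*Hnrnpd*, chr5:99978612-99978636, minus strand: ggcagtagcActATGTcggaggagc
*Usf3*, chr16:44200620-44200644, plus strand: atcactctcAccATGCcagaaatga
*BC005537*, chr13:24803369-24803393, plus strand: ctgtatttcAaaATGGgggacccaa
*Tmcc2*, chr1:132391171-132391195, minus strand: cccacttacAccATGAagaggtgca
*Map3k10*, chr7:27674012-27674036, minus strand: ggcccctccCccATGGaggaggagg
Of the 2 preferred context bases, *Rbm39* and *Marcks* at the top and *BC005537* at the bottom held both, and the other 5 windows held 1. The windows shown from the 2 ends of the range therefore overlapped in their start context.

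The control footprint libraries held 9104220 and 10614247 reads on coding sequences, and the transcriptome libraries 16649611 and 38046741. Across the members, log2 values of the footprint libraries correlated with r = 0.991 and those of the transcriptome libraries with r = 0.994. Footprints and transcriptome reads of the same number correlated with r = 0.844 and 0.832, as a description over genes that share these libraries. All 8 markers of pluripotent cells were members, with summed transcriptome values of 32696 and 29409. Of the 8 markers of differentiated germ layers listed, *T*, *Pax6* and *Nes* were members, and the summed transcriptome values of the 8 were 13927 and 12482. *Nes* had 11167 and 9607, above every pluripotency marker in each library, and *T* had 2381 and 2595. *Sox17* and *Sox1* had transcriptome values of at most 8.44. Of 6 fibroblast markers, *Dcn* and *Lum* stayed at or below 30.8 in the transcriptome libraries, but the sum of the 6 was 174948 and 179557. *Col1a1* alone, the main chain of type I collagen, had 132308 and 136627, above every pluripotency marker, although the culture is described as free of feeder cells. The part of other cells in the results was not tested.

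Efficiency spanned a wide range in the untreated cells. The 5th and the 95th percentile of the members were 0.255 and 2.99, an 11.7-fold difference, and the 25th and the 75th percentile were 0.594 and 1.64. Computed separately from the libraries numbered 1 and those numbered 2, the efficiency of a transcript differed by a median of 1.14-fold and by 1.58-fold at the 95th percentile. The spread between transcripts was thus far larger than that between library pairs. By limma on log2 values, 3960 of the 10768 members (36.8%) lay above the median transcript at an adjusted p under 0.05 and 3995 (37.1%) lay below it. With an efficiency over 2 required as well, 1748 (16.2%) were called above, and with an efficiency under 0.5, 2005 (18.6%) were called below. These shares are the background for every group described here, and "called" means past this test. Of the called transcripts, 99.9% were on the same side of the median in both pairs.

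**Figure D1:**
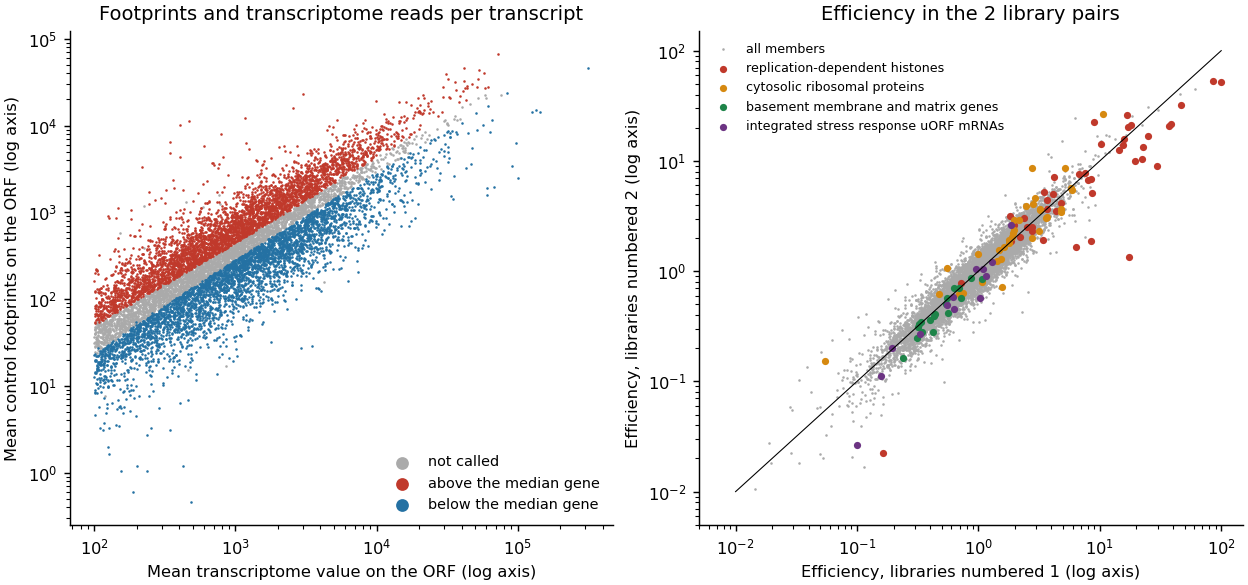
Left, mean transcriptome value (x) and mean footprint value (y) on the ORF of each member with footprints, both on log axes, coloured by the limma call against the median transcript (3960 above, 3995 below). Right, efficiency in the libraries numbered 1 (x) and numbered 2 (y), on log axes with the line of equality, with 4 gene lists coloured. Transcripts with an efficiency of 0 are not drawn. Most histones lie above 1 in both pairs and all 18 matrix genes have an efficiency below 1.

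The transcripts with the most footprints per transcriptome read were short and encoded histones and other small proteins. *Hist1h4h*, a histone H4 gene, had the highest efficiency of 69.9 (100.2 and 51.6 in the 2 pairs), and *Hist1h2bg* followed with 68.4. Reads that match the genome more than once were discarded by the authors, and only 22.5% and 10.3% of the 30 nt windows of these coding sequences occur once in the genome, so each value rests on a small stretch of the coding sequence. The transcriptome libraries differed at *Hist1h4h*, with 302 and 512 against footprint values of 11201 and 9021. Among the 283 members with under 50% of such windows, 19.4% had an efficiency over 5, against 0.432% of the 9266 members with at least 90%. The difference between the kinds of library in such sequences was not tested.

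Among coding sequences with at least 90% of windows found once and no shared exon, *Tmsb4x* led with an efficiency of 21.8. This gene encodes thymosin β4, a small protein that binds actin monomers. Its footprint values were 24447 and 22265 and its transcriptome values 2954 and 3086. Both footprint values exceeded both transcriptome values, with a log2 efficiency of 4.44 ± 0.15 (SE) over 2 libraries of each kind. *Mt1*, the metal-binding metallothionein 1, had footprint values of 6182 and 6461 over transcriptome values of 1127 and 1238, an efficiency of 15.0. *Rbm39* reached 14.5 on a listed coding sequence of only 114 nt, shorter than the known splicing factor requires. *Marcks*, a membrane-bound substrate of protein kinase C, followed with 13.9 and *Hist4h4* with 13.5. *Hnrnpd*, an RNA-binding protein of AU-rich elements, stood at 12.3. The remaining transcripts of the first 10 were *Anp32e* (10.1), *Coa3* (9.44), *Snrpd3* (7.95) and *Gar1* (7.87), of which the last 2 encode proteins of small nuclear and small nucleolar RNA particles.

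At the other end, 8 members had no footprint on the ORF in either library and 68 had a mean under 10. *Tmem81* had transcriptome values of 131.0 and 112.3 and *Mss51* of 135.6 and 108.4 without a footprint on the ORF. For *Atf7*, *Ptar1* and *Ap1g1* the listed transcript without footprints was a second one of the gene, and the other listed transcript had an efficiency of 0.791, 0.580 and 1.36. The absence of footprints on these short coding sequences hence does not describe the whole gene. Among transcripts with more footprints, *Usf3*, a large transcription factor gene, had footprint values of 38.9 and 16.3 over transcriptome values of 3181 and 2644, an efficiency of 0.0267. *BC005537* stood at 0.0505 with 91.4% of its 5′ UTR and ORF footprints on the 5′ UTR, which holds 19 AUGs. *Tmcc2* at 0.0518 and *Map3k10* at 0.0573 had 7.06% and 22.4% there.

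**Figure D2:**
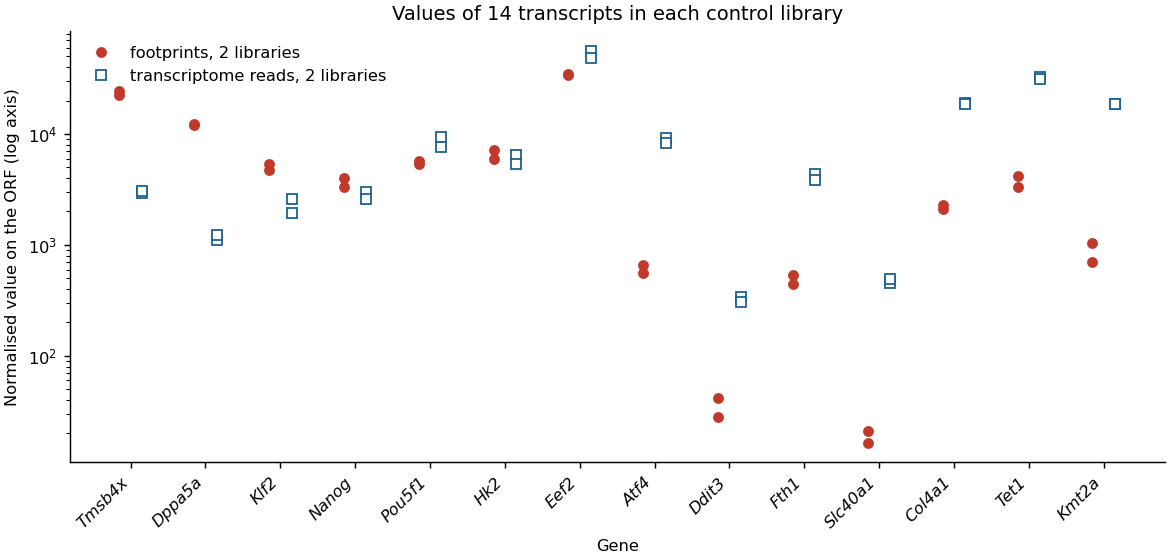
Normalised value on the ORF (y, log axis) of 14 transcripts in each of the 2 control footprint libraries (filled circles) and the 2 control transcriptome libraries (open squares). The scale of the 2 kinds of library is not shared, so only differences in the gap between genes can be read. Footprints lie above transcriptome reads for *Tmsb4x*, *Dppa5a*, *Klf2* and *Nanog* and lie farthest below them for *Slc40a1*, *Kmt2a* and *Atf4*.

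Most pluripotency factors had more footprints per transcript than the median. Of 24 members among 26 listed core pluripotency factors, 20 were called above and 2 below, and 16 were called above with an efficiency over 2. The median of the list was 2.22 (2.20 and 2.32 in the 2 pairs), against 1 for all members. For *Nanog*, the homeobox factor of naive cells, the footprint values were 3992 and 3319 and the transcriptome values 2982 and 2571. Its efficiency was 3.70, with a log2 value of 1.88 ± 0.14 (SE, limma adjusted p = 7.79e-38). *Pou5f1* had 5404 and 5757 footprints over 9296 and 7696 transcriptome reads, an efficiency of 1.85. *Pou5f1* was thus above the median but its pairs, 1.57 and 2.19, lay below those of *Nanog*, 3.62 and 3.78. *Esrrb*, a nuclear receptor of the same circuit, stood at 3.83, *Klf2* at 6.31 and *Sox2* at 2.17. *Klf4* had an efficiency of 0.885 and did not pass the test (log2 −0.17 ± 0.15, limma adjusted p = 0.307). Only 72.5% of the windows of *Nanog* and 77.4% of those of *Pou5f1* occur once in the genome. The 806 members with 50 to 90% of such windows had a median efficiency of 1.62, against 0.955 with at least 90%.

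The highest member was *Dppa5a*, an RNA-binding protein of pluripotent cells, with 12298 and 11931 footprints over 1103 and 1219 transcriptome reads. Its efficiency of 29.4 rests on a coding sequence of which only 23.1% of windows occur once in the genome. Without such genes, the 18 remaining pluripotency factors had a median of 2.15. The 2 factors called below are RNA-binding proteins linked to the let-7 microRNA. *Lin28b*, which blocks let-7 maturation, had 199 and 170 footprints over 1023 and 1034 transcriptome reads and an efficiency of 0.504. *Trim71*, an RNA-binding ubiquitin ligase that is itself a let-7 target, had 1932 and 1788 over 10214 and 8473 and an efficiency of 0.560. *Lin28a*, the paralogue of *Lin28b*, stood at 2.28. The footprint values of *Trim71* exceeded those of *Lin28b* in both libraries, whereas their efficiencies overlapped, with pair values of 0.511 and 0.618 against 0.526 and 0.480.

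The genes of the translation apparatus itself were mostly above the median. All 12 subunits of eIF3, the scaffold that joins the small ribosomal subunit to the mRNA, were called above with an efficiency over 2, from 2.10 for *Eif3h* to 4.85 for *Eif3e*, the latter with 51.5% of windows found once. The list of eIF4F, the cap-binding complex, and its cofactors was less uniform, with 8 of 12 members called above and 3 below. The 5 uniquely placed members had a median of 1.15, against 1.75 for all 12. The range of the list ran from 0.635 for *Eif4g3* to 3.46 for *Eif4a3*, which is not itself a part of eIF4F and had 53.1% of windows found once. These values rest on listed coding sequences of 705 and 895 nt. The call of *Eif4g3* was lost without the first transcriptome library (log2 −0.43). Of 40 aminoacyl-tRNA synthetases, the enzymes that charge tRNAs, 27 were called above and 3 below, and their median was 1.62. *Dars* was highest at 3.38 on a listed coding sequence of only 261 nt (1.56 relative to the same coding length), while the mitochondrial *Vars2* was lowest at 0.626. Of 42 nucleolar factors of ribosome assembly, 37 were called above and 0 below by limma (0 also at an unadjusted p under 0.05, by edgeR and by DESeq2), with a median of 1.99.

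Cytosolic ribosomal proteins could be described only in part. These genes have many processed pseudogenes of near-identical sequence. The 36 members had a median of 19.9% of windows found once, and 43 of the 79 listed genes fell below the cutoff. Of the 36, 25 were called above and 5 below with a median of 2.26, but 1 member alone reached 90% unique windows. The order within this list is therefore not given here. Mitochondrial ribosomal proteins had a median of 100% of windows found once. Of 69 members 64 were called above and 0 below by limma (0 also at an unadjusted p under 0.05, by edgeR and by DESeq2), with a median of 2.19, and 2.12 in the 49 uniquely placed ones. They ranged from 0.886 for *Mrpl30* to 8.54 for *Mrps18b*, the latter with 24.3% of windows found once.

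The mRNAs with a terminal oligopyrimidine (TOP) tract couple synthesis of the translation apparatus to the growth signal of mTOR. In 23 members of a TOP list without ribosomal proteins, 21 were called above and 2 below, with a median of 2.18. The median of the 8 uniquely placed members was 2.12. *Eef2*, which moves the ribosome along by 1 codon, had 34397 and 34016 footprints over 56098 and 48657 transcriptome reads and an efficiency of 1.84. *Naca*, a chaperone of nascent chains, stood at 0.514, but its listed coding sequence is a long form of 6561 nt, and relative to the same coding length it was at 1.00. The other member called below was *Eif4a2*, at 0.780. The first 20 bases of 5 of these transcripts and of the ribosomal protein mRNA *Rps3*, a TOP mRNA too, are shown from the annotation because the tract is defined by the transcript start, with a leading pyrimidine run in capitals.
*Eef1a1*, chr9:78481705-78481724, minus strand: TTCCCgagggtgggggagaa
*Eef2*, chr10:81176631-81176650, plus strand: gttgacgtcagcggtctctt
*Pabpc1*, chr15:36608954-36608973, minus strand: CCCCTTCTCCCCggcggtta
*Rps3*, chr7:99483632-99483651, minus strand: CCTTTCCTTTCagcggcgcg
*Npm1*, chr11:33163187-33163206, minus strand: ggcgcacgcgcaaaagcgcg
*Rack1*, chr11:48800360-48800379, plus strand: CTTTTTCTCCacagggtcgt
The annotated starts of *Eef2* and *Npm1* hold no leading pyrimidine run, and the run was 5 bases in *Eef1a1* and 12 in *Pabpc1*. Efficiencies were 2.33 for *Eef1a1*, 1.65 for *Pabpc1*, 1.66 for *Rps3*, 3.15 for *Npm1* and 1.95 for *Rack1*, and were not higher with a longer run. However, only 13.9% of the windows of *Npm1* and 11.1% of those of *Eef1a1* occur once in the genome. The share was 51.3% for *Pabpc1* and 82.0% for *Rps3*, so the order of these efficiencies cannot be read against run length. Over the 191 members whose annotated start is a C with at least 4 further pyrimidines, the median was 0.834, against 0.994 in the 7759 others with a reference start. An annotated start need not be the one used in these cells.

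Protein complexes and enzymes of basic metabolism were also high. All 8 subunits of the CCT chaperonin, which folds actin and tubulin, were called above (median 2.49), as were 34 of 35 proteasome subunits (median 2.49). The lowest proteasome subunit, *Psmd8*, had an efficiency of 1.06 and did not pass the test. All 19 members of the replicative helicase and clamp list were called above with a median of 2.23, led by *Cdc45*, a component of the active helicase, at 4.41 on a listed coding sequence of only 407 nt. Of 14 glycolytic enzymes 13 were called above. *Hk2*, which phosphorylates glucose at the entry of glycolysis, had 7093 and 5957 footprints over 6502 and 5346 transcriptome reads and an efficiency of 3.10. *Aldoa* was highest at 6.02, with 51.0% of windows found once. *Eno2*, the neuronal enolase, was the single member called below, at 0.516, and lost the call without the second transcriptome library (log2 −0.89).

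Respiratory chain subunits had 63 of 70 members called above and 0 below by limma (1 below at an unadjusted p under 0.05, by edgeR and by DESeq2) with a median of 2.16. Their median was 1.87 in the 39 uniquely placed ones and 1.58 relative to the same coding length. Of 18 *Timm* and *Tomm* genes of mitochondrial import 13 were called above (median 2.39, or 1.73 relative to the same coding length). The SR and hnRNP proteins of splicing had 31 of 37 called above and 2 below with a median of 2.63, or 2.05 relative to the same coding length. The lowest of these was *Srsf12* at 0.292, with 9 and 12 footprint reads. Among 33 cyclins and cyclin-dependent kinases, 14 were called above and 11 below around a median of 1.08. These shares, 42.4% and 33.3%, were near the 36.8% and 37.1% over all members. *Ccnd1*, cyclin D1, stood at 3.57, with 3184 and 3260 footprints over 2799 and 2286 transcriptome reads, whereas *Cdk16* had 101 and 113 over 2134 and 1898, an efficiency of 0.150.

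Replication-dependent histone mRNAs, which end in a stem-loop instead of a poly(A) tail, had the highest median of all lists, 7.29 (8.22 and 6.82). Of 44 members 39 were called above and 1 below. Only 4 of them had at least 90% unique windows and no shared exon, and their median was 4.75. *Hist4h4*, with 98.9% of its windows found once, had 3856 and 3406 footprints over 724 and 793 transcriptome reads. The linker histones, which differ more in sequence from each other, ranged from 2.45 for *Hist1h1c* to 5.50 for *Hist1h1b*. Libraries were depleted of rRNA without selection of poly(A) RNA. The paper describes extreme ribosome stalling at the start codon of many histone mRNAs, and such footprints count on the ORF here. Their part in these efficiencies was not tested.

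**Figure D3:**
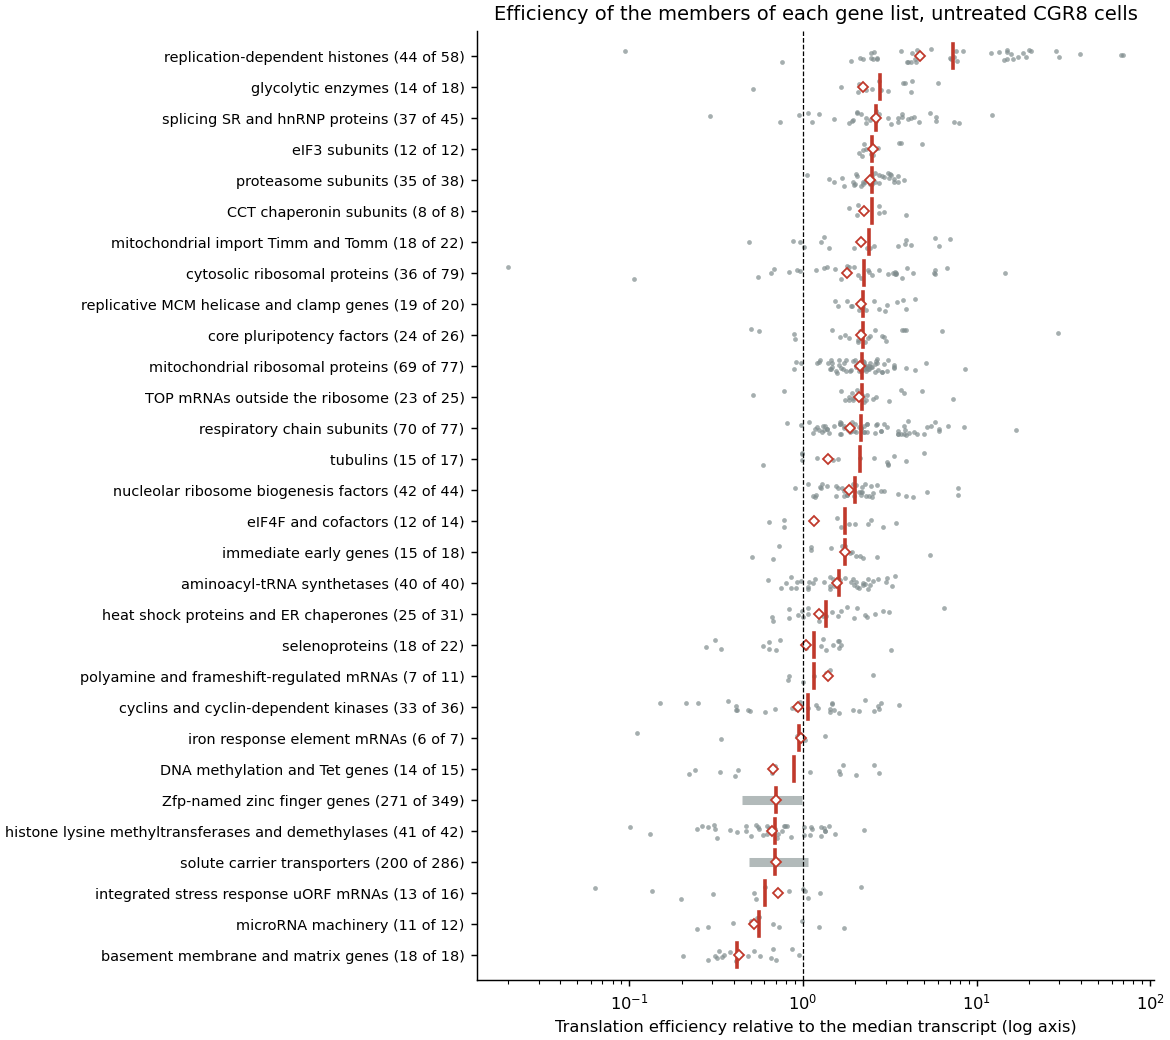
Efficiency (x, log axis, 1 is the median transcript) of the members of 30 gene lists, sorted by list median, with the number of members of the number listed. Grey points are members (an efficiency under 0.02 is drawn at 0.02), red bars list medians and open diamonds the medians of uniquely placed members. For 2 large lists a grey bar shows the quartiles instead of points. Medians run from 0.419 for matrix genes to 7.29 for histones.

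Low efficiency was common in genes of the extracellular matrix. Of 18 basement membrane and matrix genes, 16 were called below, 11 of them under 0.5, and the median was 0.419. By limma 0 were called above, and 0 also at an unadjusted p under 0.05, by edgeR and by DESeq2. *Col4a1*, a chain of basement membrane collagen, had 2300 and 2098 footprints over 19168 and 18720 transcriptome reads. Its efficiency was 0.327 (log2 −1.62 ± 0.14, limma adjusted p = 6.26e-28). *Col3a1* was lowest at 0.204, *Lama1*, a laminin chain, stood at 0.380, and *Sparc* at 0.954 did not pass the test. These genes are long, with a median coding length of 4914 nt, and relative to members of the same length range their median was 0.742. In this list *Col1a1*, *Col1a2* and *Col3a1*, encode fibrillar collagens typical of fibroblasts, and the part of such cells in their values was not tested.

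Membrane transporters and zinc finger genes were low as well. Of 200 solute carriers 119 were called below and 30 above (median 0.691). They ranged from 0.0442 for the mitochondrial carrier *Slc25a27*, with 1 and 3 footprint reads, to 5.44 for the adenine nucleotide translocator *Slc25a5*, with 13.5% of windows found once. Of 271 *Zfp*-named genes 152 were called below and 32 above (median 0.703). The highest was *Zfp296* at 3.76. In both lists the median hardly moved relative to the same coding length, to 0.695 and 0.744.

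Chromatin regulators differed within their families. Of 41 histone lysine methyltransferases and demethylases, 25 were called below and 7 above with a median of 0.693, which became 0.997 relative to the same coding length. *Kmt2a*, a large H3K4 methyltransferase, had 1034 and 706 footprints over 18721 and 18715 transcriptome reads, an efficiency of 0.131. *Kmt2e* was lowest at 0.101 and *Ezh2*, the catalytic subunit of Polycomb complex 2, was highest at 2.25. Of 14 DNA methylation and Tet genes, 6 were called above and 7 below (42.9% and 50.0%, against 36.8% and 37.1% over all members), with a median of 0.891. Among the high ones, *Dnmt3l*, a cofactor of de novo methylation, stood at 2.73, *Uhrf1* at 2.56 and the maintenance enzyme *Dnmt1* at 2.01. The 3 Tet genes, whose products oxidise methylcytosine, were all called below, as were other members of this list. *Tet1* had 4209 and 3326 footprints over 32486 and 31174 transcriptome reads and an efficiency of 0.333, with *Tet2* at 0.404 and *Tet3* at 0.221. Relative to members of like coding length *Tet1* was at 0.652.

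The microRNA machinery had 8 of 11 members called below and 1 above (median 0.555, or 0.902 relative to the same coding length). *Dicer1*, which cuts precursor hairpins, had 2030 and 1644 footprints over 10672 and 9880 transcriptome reads and an efficiency of 0.503. *Xpo5*, the nuclear export receptor of the precursors, was highest at 1.72 and *Tnrc6a*, a partner of Argonaute, lowest at 0.244. *Ago2* at 0.986 did not pass the test.

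Several transcripts with known regulatory uORFs were low in efficiency and had a large share of their 5′ UTR and ORF footprints upstream of the start, 2 measures that both contain the ORF footprints. Of 13 members of the integrated stress response list, 7 were called below and 2 above, with a median of 0.604 and a median of 20.1% of footprints on the 5′ UTR, against 1.70% over all members. *Atf4*, the transcription factor at the centre of this response, had 660 and 563 footprints on its ORF over 9130 and 8290 transcriptome reads. Its efficiency was 0.198 (log2 −2.34 ± 0.14, limma adjusted p = 5.92e-57), and 41.5% and 74.6% of its footprints lay on the 5′ UTR in the 2 libraries. This share differed widely between the 2 libraries of *Atf4*, while its efficiency did not (0.195 and 0.199). *Ddit3*, the CHOP factor, had 41.3 and 28.1 over 336 and 304 and an efficiency of 0.305, with 73.9% and 78.9% of footprints upstream. *Ppp1r15a*, the stress-induced subunit of an eIF2α phosphatase, stood at 0.135 with 51.9% and 65.02% upstream. *Slc35a4* was lowest at 0.0635 with 87.0% and 96.8% upstream, but this rests on 6 and 2 ORF reads, on 40.2% of windows found once and on pairs of 0.0992 and 0.0264. Its log2 efficiency of −3.89 became −4.57 without the first footprint library and −3.20 without the second. *Cebpb*, whose uORF sets the ratio of its isoforms, was highest at 2.16, *Slc7a1* stood at 1.25, and *Atf5* at 0.829 did not pass the test. The call of *Slc7a1* was lost without the second footprint library or either transcriptome library (log2 0.28, 0.23 and 0.41), and *Atf5* was called below without the first footprint library (log2 −0.86).

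The AUGs in the 5′ UTRs of *Atf4*, *Ddit3* and *Ppp1r15a* are shown, except the last of *Atf4*, whose window crosses an exon junction, with the AUG in capitals, since these are the candidate starts of the upstream footprints.
*Atf4* AUG 1, chr15:80255293-80255315, plus strand: cttttctctcATGgggcctttag
*Atf4* AUG 2, chr15:80255572-80255594, plus strand: tgcggccaccATGgcgtattaga
*Ddit3* AUG 1, chr10:127290819-127290841, plus strand: cgattatatcATGttgaagatga
*Ddit3* AUG 2, chr10:127290828-127290850, plus strand: catgttgaagATGagcgggtggc
*Ppp1r15a* AUG 1, chr7:45526222-45526244, minus strand: cgcgtggacgATGttggcgcaga
*Ppp1r15a* AUG 2, chr7:45526178-45526200, minus strand: ggaagattacATGcgatatcccg
*Ppp1r15a* AUG 3, chr7:45526077-45526099, minus strand: tgagggcgacATGaacccgctgg
The reading frame from *Atf4* AUG 2 is 3 codons long, and the AUG not shown, 97 nt before the coding sequence, opens a frame of 59 codons that overlaps it. The frames of *Ddit3* have 34 and 31 codons and those of *Ppp1r15a* 45, 34 and 26, and all of these end before the coding sequence. These are descriptions of the annotated sequence, and the deposited values used here do not assign 5′ UTR footprints to single frames.

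Iron-responsive elements (IREs) in a 5′ UTR bind iron regulatory proteins, which block translation when iron is scarce. The 6 members of the IRE list fell into different ranges. *Fth1*, the ferritin heavy chain that stores iron, had 532 and 441 footprints over 4332 and 3812 transcriptome reads and an efficiency of 0.336. *Slc40a1*, the iron exporter ferroportin, had 16.5 and 20.8 over 453 and 498 and an efficiency of 0.111. Both were called below. *Epas1*, the hypoxia factor HIF-2α, was called above at 1.34, a call lost without either transcriptome library (log2 0.53 and 0.32) and with the libraries scaled to equal sums (0.24). *Tfrc*, the transferrin receptor, whose IREs lie in the 3′ UTR and act on mRNA stability, stood at 1.03, and the iron importer *Slc11a2* at 0.922. The loop letters CAGTG, searched on the transcript strand, are in capitals in the 5′ UTRs of *Fth1*, *Slc40a1* and *Epas1*.
*Fth1*, chr19:9982734-9982758, plus strand: cctgcttcaaCAGTGcttgaacgga
*Slc40a1*, chr1:45925467-45925491, minus strand: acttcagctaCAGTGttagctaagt
*Epas1*, chr17:86753770-86753794, plus strand: caatcctcggCAGTGtcctgagact
These 5 letters alone occur in 22.3% of 10510 5′ UTRs of members, with a median efficiency of 0.908 against 1.03 without them, so a match is no sign of an element.

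Selenoproteins, which read a stop codon as selenocysteine, had 8 of 18 called above and 8 below. These shares, 44.4% each, were near the 36.8% and 37.1% over all members. *Selenom* stood at 3.21 and *Sephs2*, which makes the selenium donor, at 0.278. Immediate early genes had 10 of 15 members called above and 3 below (median 1.74), led by *Ier2* at 5.39. Heat shock proteins and chaperones of the endoplasmic reticulum had 16 of 25 called above and 2 below, with *Hsp90aa1* highest at 6.52 on a coding sequence with 8.66% of windows found once. Of 15 tubulins 10 were called above and 1 below. Only 6 of the tubulins were uniquely placed, with a median of 1.39 against 2.13 for all 15. Of 7 mRNAs of polyamine metabolism or frameshifting 3 were called above and 0 below by limma (0 at an unadjusted p under 0.05 and by DESeq2, 1 by edgeR). *Odc1*, the first enzyme of polyamine synthesis, stood at 1.00.

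Efficiency varied with the layout of the transcript. It fell over the whole range of coding length, from a median of 2.17 in the 202 members of up to 300 nt to 1.01 at 1001 to 2000 nt and 0.400 in the 132 members over 8000 nt. In the shortest class 77.2% of members were called above and 4.95% below, and in the longest 1.52% and 91.7%. *Dmd*, the dystrophin gene, had a listed coding sequence of 11034 nt and was 1 of the 2 called above in the longest class, at 1.66. *Ahnak*, with 16968 nt, was lowest there at 0.0692, though its pairs differed (0.0933 and 0.0436). Footprints that accumulate at start and stop codons weigh more in a short coding sequence, and their part in this relation was not tested.

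Above 25 nt, members with a longer 5′ UTR also had lower values. The median was 1.13 in the 582 members under 25 nt, 1.26 for 25 to 100 nt, 1.03 for 101 to 300 nt, 0.739 for 301 to 1000 nt and 0.572 in the 133 members over 1000 nt. This order remained relative to members of the same coding length, with 1.12, 1.15, 1.03, 0.792 and 0.557. By length of the 3′ UTR the median went from 1.27 under 200 nt to 0.681 over 4000 nt, or from 1.15 to 0.737 relative to the same coding length. GC content of the 5′ UTR gave no single direction. Medians were highest, at 1.12, for 50 to 60% and 60 to 70% GC, and were 0.777 for up to 40% (58 members) and 0.586 for over 80% (443 members). The transcripts with the most GC were called below in 67.9%.

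Upstream AUGs were counted in members with the same coding start and length in the reference. The 4034 members without one had a median of 1.23, followed by 0.906 with 1, 0.804 with 2 and 0.673 with 3 or more. A longer 5′ UTR holds more AUGs, so the count was also compared within a length class. For 5′ UTRs of 101 to 300 nt the medians were 1.22, 0.902, 0.824 and 0.802 in the same order. For 301 to 1000 nt they were 1.08, 0.797, 0.781 and 0.631. In both classes the largest step was between no AUG and 1. The preferred start context made a smaller difference, with medians of 0.858 with neither base, 0.957 with 1 and 1.07 with both.

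The share of footprints on the 5′ UTR went along with low efficiency, but this share has the ORF footprints in its denominator and so is tied to efficiency by construction. Members with up to 1% of footprints upstream had a median of 1.14, those with 20 to 50% a median of 0.647 and the 214 with over 50% a median of 0.393. By level of the transcript, medians were 0.965 to 1.04 in the 4 classes below a transcriptome value of 10000 and 0.833 in the 393 members above it. Relative to the same coding length the order turned, with 0.889, 0.966, 1.02, 1.22 and 1.26 from the lowest to the highest class. The transcriptome value that defines these classes is also the denominator of efficiency, so both courses are tied to efficiency by construction.

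**Figure D4:**
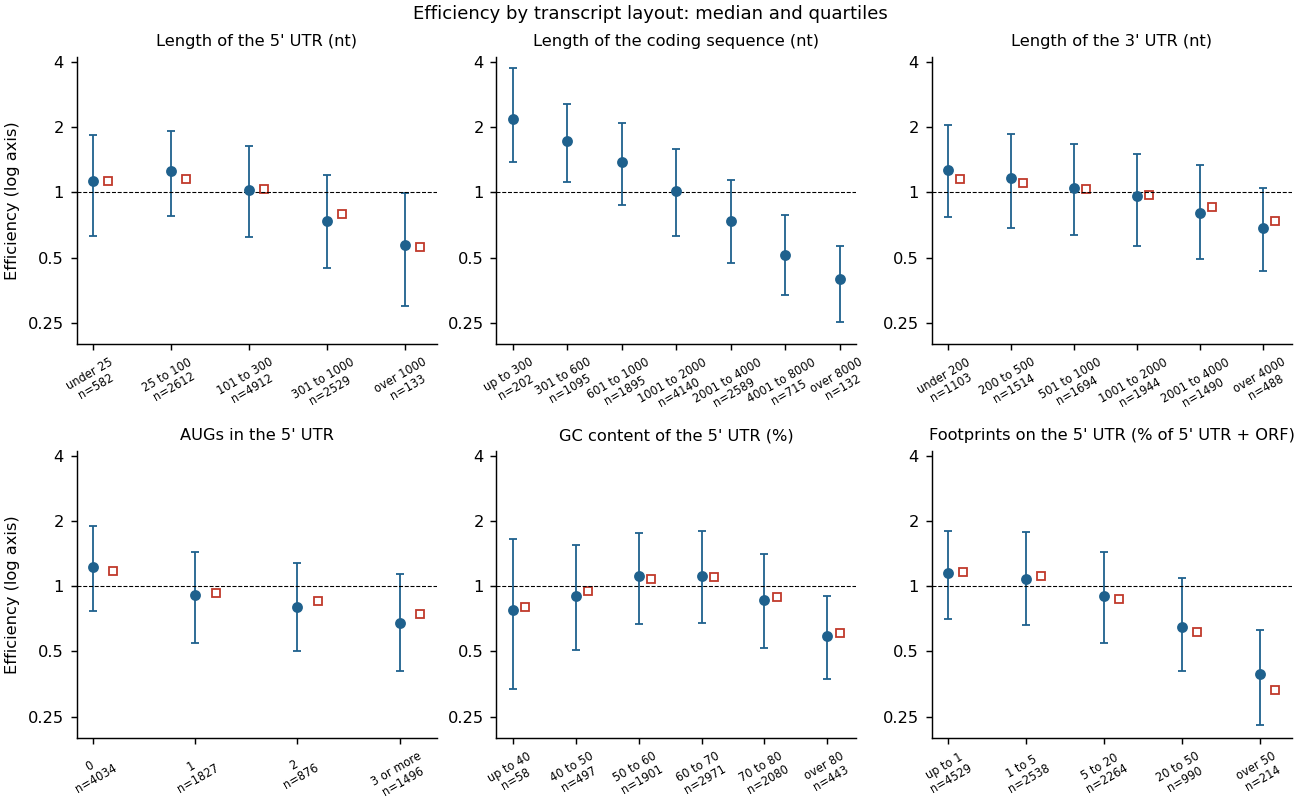
Median efficiency (filled circles, y, log axis) with quartiles (bars) by class of 5′ UTR, coding and 3′ UTR length, AUGs in the 5′ UTR, GC content of the 5′ UTR and share of footprints on the 5′ UTR, with the number of members per class. Open squares are medians relative to members of the same coding length. The steepest course is that over coding length, from 2.17 to 0.400.

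In the inhibitor libraries the footprints on the same ORFs summed to 15.1% of the untreated value with harringtonine, an inhibitor of elongation that acts mainly on its first steps, to 4.85% with DMDA-pateamine A, which acts on the helicase eIF4A, and to 18.0% with puromycin, which releases nascent chains. The same control transcriptome values served as denominator for all 3 and for the untreated cells, so the ratios share their error and are given side by side without a test. Doses and times differed between the drugs. The median of the matrix genes, 0.419 untreated, was 0.221, 0.418 and 0.216 with harringtonine, DMDA-pateamine A and puromycin, each relative to the median transcript of that treatment. For core pluripotency factors, 2.22 untreated, the values were 1.99, 1.85 and 2.37.

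Histones, 7.29 untreated, had 63.3, 33.8 and 52.7. The part of ribosomes stalled at histone start codons, which the paper describes, was not tested in these values. Immediate early genes, 1.74 untreated, had 2.25 and 1.60 with harringtonine and DMDA-pateamine A and 6.61 with puromycin. *Timm* and *Tomm* genes, 2.39 untreated, had 6.91, 2.99 and 5.52, whereas CCT subunits, 2.49 untreated, had 1.09, 1.61 and 1.06. The shortest coding sequences, 2.17 untreated, had 8.39, 3.77 and 6.61 and the longest, 0.400 untreated, 0.267, 0.501 and 0.146. The spread between short and long coding sequences was thus wider with each drug than in untreated cells. *Ddit3*, at 0.305 untreated, stood at 1.95, 0.936 and 4.98, and *Fth1*, at 0.336 untreated, at 7.79, 0.640 and 1.64. The untreated value of *Ddit3* rests on only 35 and 31 ORF reads, and the reads behind its inhibitor values are not given here. *Atf4*, at 0.198 untreated, had 0.191, 0.249 and 0.647.

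**Figure D5:**
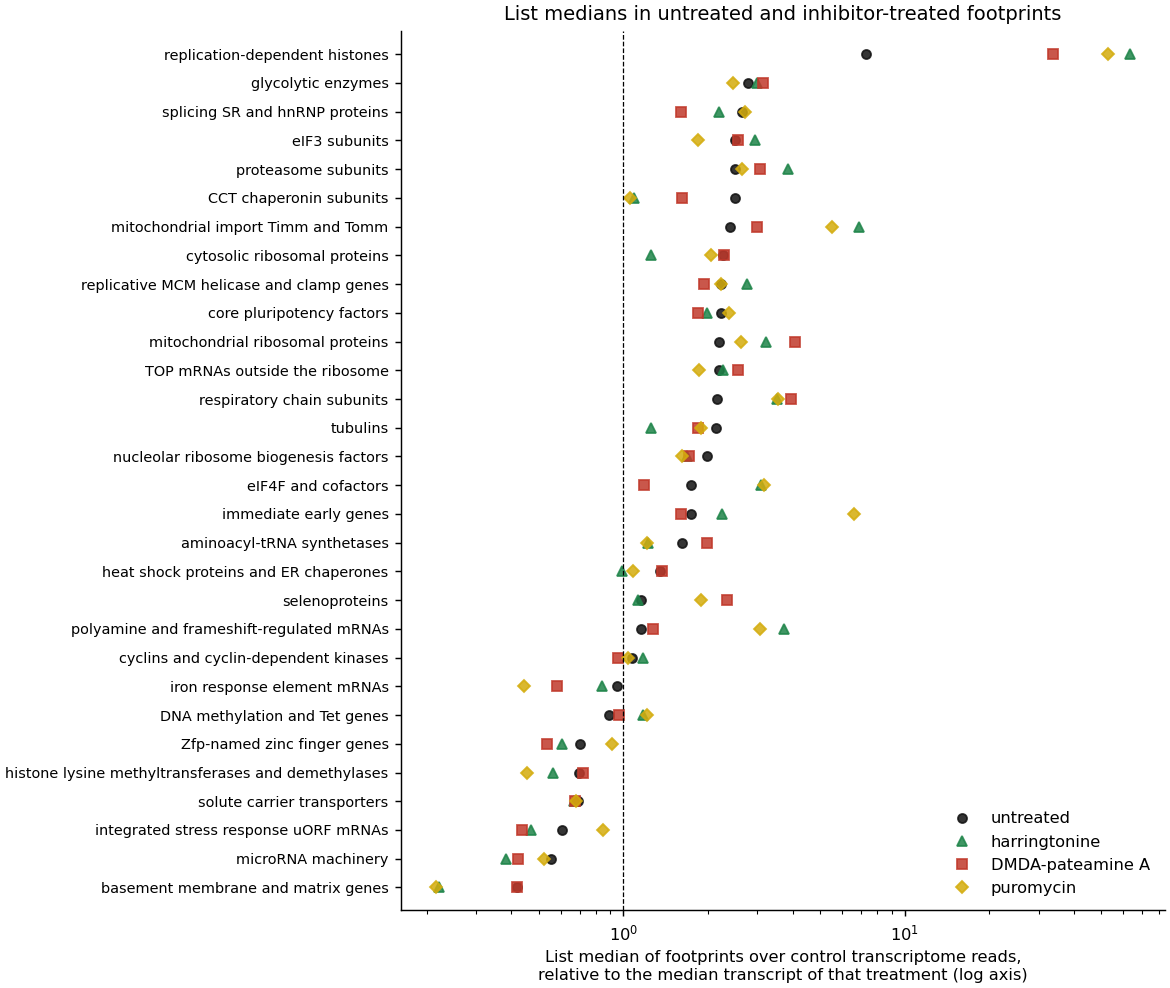
Median of each gene list (x, log axis, 1 is the median transcript of that treatment) for control footprints (circles), harringtonine (triangles), DMDA-pateamine A (squares) and puromycin (diamonds), all over the control transcriptome values. Lists are sorted by the untreated median. Histones are rightmost with every treatment, at 7.29, 63.3, 33.8 and 52.7.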

How the data were processed

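Footprints and transcriptome RNA were sequenced on the SOLiD platform, and the authors aligned reads to mm10 with LifeScope, discarded reads that match more than once and kept matches of 26 to 36 nt. The deposited signal is reads per region divided by a DESeq2 size factor of the authors, from spike-in RNA for footprints and between replicates for transcriptome libraries. All values came out as whole reads (100% within 0.01), and these were used only for count tests. The authors chose 1 transcript per gene in part by control footprints, so the selection used the readout. Pseudogenes were left out by them. Here, values in the ORF column were tested by limma (version 3.58.1, trend and robust) on log2(value + 1), centred on the median of the members, with Benjamini-Hochberg adjustment over all 10768. Fold changes of low transcripts are understated on this scale. The limma prior was so strong that the spread was in effect pooled over transcripts. On simulated data limma called 97.2% of 108 transcripts changed by log2 1, 100% of 92 changed by log2 2 and 0.02% of 10568 unchanged ones. Nearly all simulated transcripts were unchanged, whereas most members were called in the data, so the simulation gives no error rate for these calls.

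The members, the 30 gene lists and the tests were chosen with earlier results of these data known, so the lists are described by counts and medians without a test. Named genes are the 10 highest and 10 lowest called transcripts with the same side in both pairs (also among uniquely placed ones), the highest, lowest and best-known members of each list and the extremes of the outer layout classes. *BC005537*, *Tmcc2* and *Map3k10* were named for their start codon windows, and *Eif4a2*, *Hist1h1b*, *Hist1h1c*, *Tet2*, *Lin28a* and *Rplp0*, among others, were named after their values were seen. Unique windows are 30 nt stretches of the coding sequence found once in the GRCm38 genome. Layouts that need the sequence or the 3′ UTR come from GENCODE for the 8233 members with the same coding start and length there. Lengths of the 5′ UTR and the coding sequence come from the deposited ORF positions of all members. edgeR (4.0.16, quasi-likelihood, TMM) and DESeq2 (1.42.0) on recovered reads, other cutoffs, pseudocounts and scalings, a replicate block and the omission of each library were alternatives. The restriction to uniquely placed transcripts and the comparison within coding length were added after seeing the data.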

Additional observations from a re-analysis of the deposited data

How the results depend on the processing

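The number of libraries, 2 of each kind, limits precision, and standard errors rest on a spread pooled over transcripts. Transcripts above and below the median numbered 3960 and 3995, and 4136 and 4150 by edgeR, 3897 and 3802 by DESeq2, 4592 and 4588 with a cutoff of 20, 2740 and 2795 with a cutoff of 500, and 3242 and 3254 among uniquely placed ones. With libraries scaled to equal sums in place of the median transcript, all log2 efficiencies shifted by −0.19 and the calls became 3299 above and 4646 below. Leaving out each library in turn gave 3289 to 3985 above and 3195 to 4028 below. Members with an efficiency over 2 or under 0.5 numbered 3767, and 2485 with a cutoff of 500, where fewer transcripts were tested. Of 43 layout classes 18 had a median above 1, and 8 under equal sums, which moves every value down. *Rplp0*, not called at an efficiency of 0.958, ranged on the log2 scale from −0.60 (called below) without the first transcriptome library to 0.76 (called above) without the second, since those 2 libraries differ at this gene. The histone median fell to 4.47 with a cutoff of 500. Relative to the same coding length, medians moved by over 1.5 times for histones (4.25), cytosolic (1.41) and mitochondrial (1.40) ribosomal proteins, immediate early genes (1.11), matrix genes (0.742) and microRNA machinery (0.902). Of 2854 values of named transcripts under the alternatives, 2766 kept direction and side of the threshold, 57 lost the call and 30 gained it.

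With the replicate number as a block, 4087 were called above and 4110 below. Deviations of same-numbered libraries correlated with 0.048 over 2 pairs, so the numbers were not taken to pair the libraries.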

Other observations

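Gene symbols were also grouped by their leading letters, without regard to the lists, and 94 such groups had at least 12 members. These groups were formed after the data were seen and are described without a test. Below the median were *Gpr* genes, mostly receptors coupled to G proteins, with a median efficiency of 0.293 and 14 of 15 called below. *Adamts* genes, proteases of the extracellular matrix, had 0.349 with 14 of 15 called below. *Zdhhc* genes, the palmitoyl transferases of membranes, had 0.447 with 13 of 19 called below, and *Mfsd* genes, a family of transporters, had 0.479 with 9 of 14 called below. *Sema* genes, the semaphorin guidance cues, had 0.531 with 14 of 18 called below. Relative to members of the same coding length these medians were 0.321 for *Gpr*, 0.471 for *Adamts*, 0.415 for *Zdhhc*, 0.513 for *Mfsd* and 0.667 for *Sema*. The groups named here are a selection. Others with a median below that of *Sema* were *Col* (0.382), *St* (0.459), *Ankrd* (0.486), *Dennd* (0.505) and *Il* (0.527), so the selection shows no common theme of the low groups.

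At the high end, outside the lists, *Polr* genes, the subunits of RNA polymerases, had a median of 1.90 with 17 of 24 called above and 1 below. *Gtf* genes, the general transcription factors, had 1.81 with 14 of 20 called above and 3 below, and *Aldh* genes, the aldehyde dehydrogenases, had 1.74 with 10 of 12 called above. Relative to the same coding length these medians were 1.86, 1.56 and 2.12.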
